A study of Mus musculus with 40 samples.

Results

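The 36 genes described here encode the coats, cargo receptors and fusion proteins that move vesicles between the endoplasmic reticulum (ER) and the Golgi apparatus. They were taken as the rows of the deposited counts table whose Ensembl identifiers map to 36 listed symbols, out of 21958 gene rows. No measured value entered that rule, but the symbols were chosen with earlier results of these data known. The list holds 11 genes of the COPII coat and its GTPase cycle, 7 genes of the COPI coat, 7 p24 proteins, 6 cargo receptors and 5 SNAREs. Each gene had a count in 38 or more of the 40 libraries, and all 36 passed the filter on low counts in each of the 11 comparisons made.

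The series compared B-cell development in mice carrying a missense allele of Slc39a7, the gene of the zinc transporter ZIP7, with that in wild-type (WT) mice. Lethally irradiated congenic hosts received bone marrow from WT donors or from P198A/P198A donors, in which CRISPR/Cas9 had replaced a proline of ZIP7 by alanine, and their marrow was taken after 8 weeks. Hosts of both genotypes were therefore irradiated, and donor-derived cells were selected by their CD45 allele. From 5 chimeras of each genotype, 100 cells of each of 4 Hardy fractions went into a Smart-seq2 library, which gave 8 groups of 5 libraries, and each mouse contributed to every fraction. FrB was gated as B220+ CD43+ CD24+ BP1- (pro-B cells in the Hardy scheme), FrD as B220+ CD43- IgM- and IgD- (late pre-B cells), and FrE as B220+ CD43- IgM+ with IgD- (immature B cells). For FrC a gate was not given in the sources used here. The sample titles call the mutants KO, although the allele is a missense change, so the RNA of Slc39a7 does not check the genotype. Values of a WT group are given below in the order of mice 1, 2, 3, 6 and 7, and those of a mutant group in the order of mice 4, 5, 8, 9 and 10.

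COPII vesicles carry newly made proteins out of the ER. The exchange factor PREB loads the GTPase SAR1 with GTP, SAR1 recruits SEC23 with one of the SEC24 paralogs, which bind cargo, and SEC13 with SEC31 forms the outer cage. COPI vesicles, coated by the heptameric coatomer, return escaped ER proteins and recycled receptors from the Golgi, with KDEL receptors retrieving soluble chaperones and p24 (TMED) proteins acting as cargo adaptors. Antibody-secreting plasma cells are known for an expanded secretory pathway, whereas early B-cell precursors secrete little.

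Endogenous totals ran from 42111 to 43372070 counts, with a median of 16474388. Low-complexity libraries, defined here by more than 15% of detected genes carrying 1 to 9 counts, numbered 10. They comprise 4 of the 5 mutant FrB libraries (mice 4, 8, 9 and 10), 3 mutant FrC libraries (mice 5, 9 and 10), the FrE library of mutant mouse 9, the FrD library of WT mouse 3 and the FrE library of WT mouse 7. The B-lineage markers Cd79a, Cd79b, Pax5, Ebf1 and Blnk summed to between 1659 and 23730 CPM (counts per 1000000 endogenous counts of the library) in the 40 libraries. Markers of other cell types were not spread evenly over the groups, and their values stand beside the results they moved with. In bulk pools of 100 cells, fewer cells of a type and less RNA per cell cannot be told apart. Copa, Tmed5, Surf4 and Tmed7 share exonic bases with Ncstn, Mtf2, Surf2 and Ticam2, which are in the table too, and their levels are less certain for that reason. The same limit holds for Preb, Sec23a and Copg1, which share 21.8%, 8.9% and 8.5% of their exonic bases with annotated genes that are not in the table.

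Per kilobase of exon, the WT libraries held most RNA of Copz1, encoding the zeta subunit of the COPI coat, with a median of 136.3 CPM per kilobase. Sar1b, the more abundant SAR1 gene, followed at 135.5, Cope, the epsilon subunit of COPI, at 131, Kdelr2, a KDEL receptor, at 128, and Sec13, of the COPII cage, at 111 CPM per kilobase. The same 5 genes held the first 5 places when the longest transcript replaced the union of exons, with Sec13 first. The lowest levels were those of Sec24a at 1.63, Sec24d at 3.54, Sec23a at 5.48, Sec31a at 5.52 and Sec24b at 5.53 CPM per kilobase. Of these, the Sec24 genes and Sec23a encode the inner COPII coat, and Sec31a encodes the cage partner of Sec13. Neighbouring genes in this order overlapped in their ranges over the 20 WT libraries, since the lowest libraries of Copz1 and Sec13 were at 30.3 and 2.68 CPM per kilobase.

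The median standard deviation of log2(CPM + 1) over the 5 WT FrB libraries was 0.321 for the 36 genes and 0.501 for all 12442 genes tested in any comparison. In WT FrC these medians were 0.298 and 0.424, and in mutant FrD 0.457 and 0.745. In mutant FrB they were 1.39 and 1.42, and in mutant FrC 1.93 and 1.76, so the 2 mutant groups with most low-complexity libraries spread widely for traffic genes and for other genes. The heat map of log2(CPM + 1) by library shows these libraries as dark columns.

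**Figure D1:**
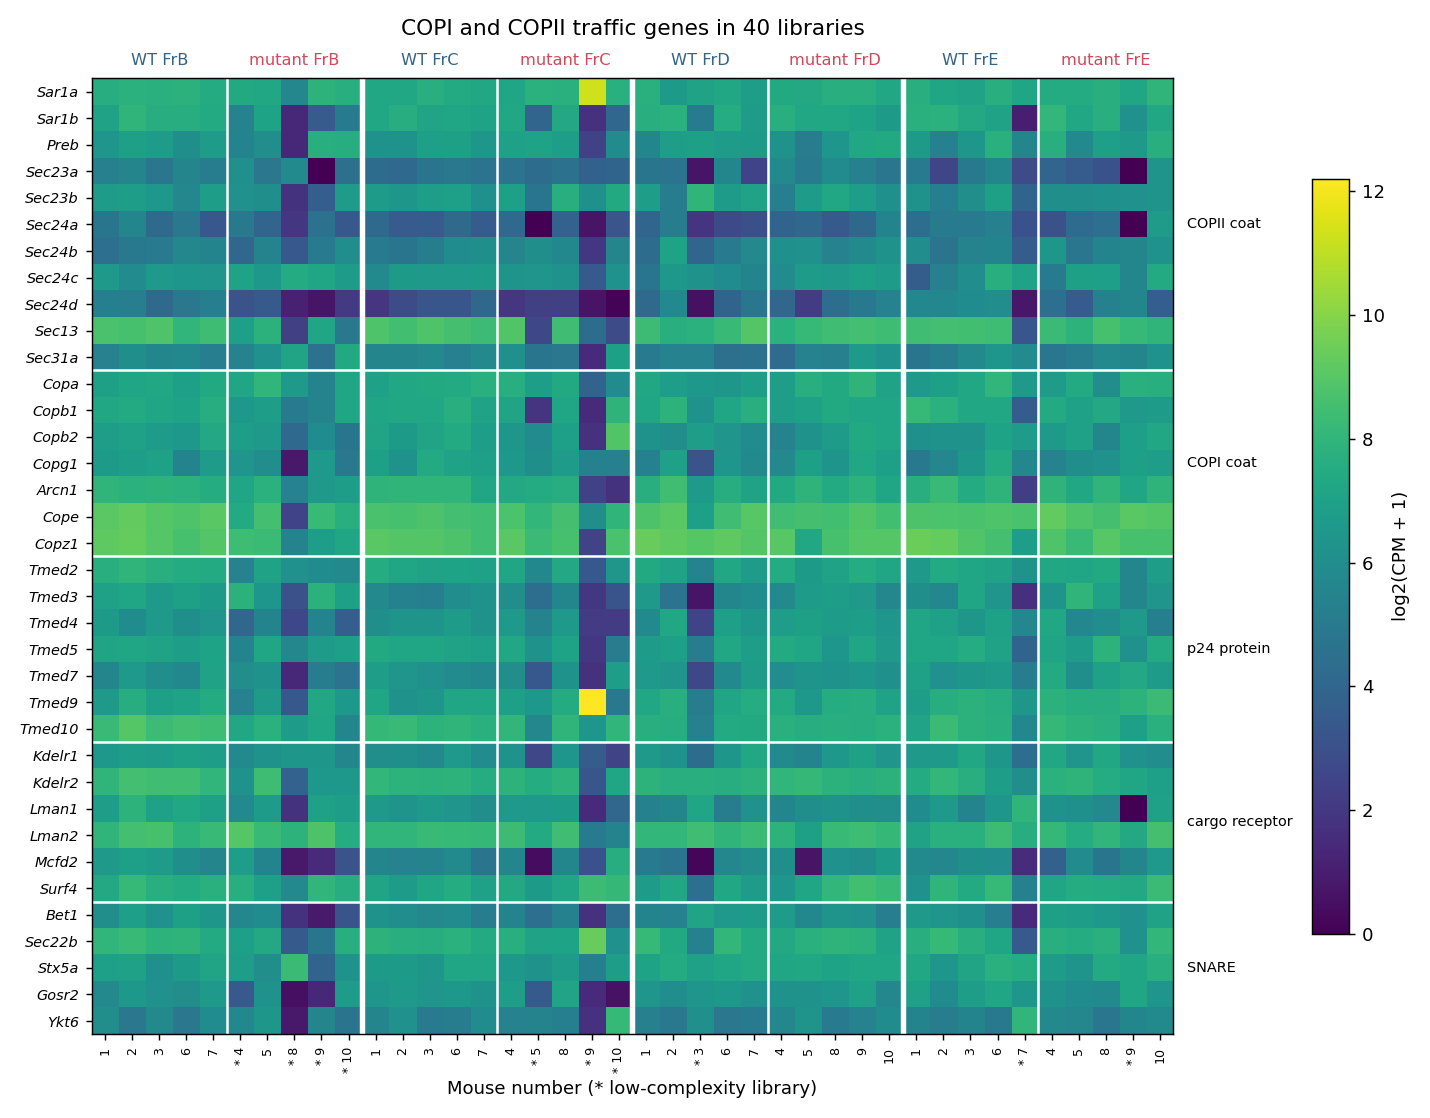
Level of each of the 36 traffic genes (rows, grouped by role) in each of the 40 libraries (columns, grouped by fraction and genotype, mouse numbers below, asterisks on low-complexity libraries), as log2(CPM + 1) by colour. The bright cells of Sar1a and Tmed9 both lie in the FrC library of mutant mouse 9, and the darkest columns carry asterisks.

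Promoter sequences of 31 of the 36 genes were matched in RefSeq on GRCm38.p6. Those of Sar1a and Sec24d are shown because Sar1a was one of the 2 genes called below, on a single library, and Sec24d had the largest fitted fold change in FrB. Each runs 5′ to 3′ on the plus strand and ends before the first annotated exon, and capitals mark each match to ACGTG, the core bound by several ER-stress factors, or its reverse complement.
Sar1a, chr10:61680035-61680284: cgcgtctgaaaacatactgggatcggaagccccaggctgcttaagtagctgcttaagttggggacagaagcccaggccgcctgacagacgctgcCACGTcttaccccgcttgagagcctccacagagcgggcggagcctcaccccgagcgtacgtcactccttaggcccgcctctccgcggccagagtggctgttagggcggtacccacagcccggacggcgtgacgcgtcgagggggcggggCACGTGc
Sec24d, chr3:123267246-123267454: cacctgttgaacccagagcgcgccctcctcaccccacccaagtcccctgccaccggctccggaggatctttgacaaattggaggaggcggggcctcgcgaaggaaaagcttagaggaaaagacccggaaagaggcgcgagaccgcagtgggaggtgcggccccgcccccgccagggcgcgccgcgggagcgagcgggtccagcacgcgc
The Sar1a window holds 3 matches, of which 2 are the strands of one palindromic CACGTG, and the 209 bases shown for Sec24d hold 0. Over windows of 250 bases before each RefSeq start, ACGTG on either strand was found for 12 of the 31 traffic genes and for 18.5% of 27025 genes. The 12 were Sar1a, all 4 Sec24 genes, Sec31a, Copb1, Copb2, Tmed3, Tmed10, Lman2 and Mcfd2, and for Sec24d the match lies in the bases left out above. The RefSeq windows of Sec24a and Sec24b lie inside those genes as annotated in GENCODE M21. So does the matching window of Sec31a, chr5:100410024-100410273, whose other window, chr5:100416235-100416484, holds 0 matches. The ER-stress response element, CCAAT and CCACG with 9 bases between them, was found in 0 of the 31 and in 0.13% of all genes. The element ERSE-II, ATTGG and CCACG with 1 base between them, was found in 0 and in 0.037%, each on either strand.

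In FrB, the fraction in which most genes were called over the whole table, 27 of the 36 traffic genes had fitted levels below those of WT, and none passed the test. By role, medians ran from -0.86 for the SNAREs and -0.80 for the p24 genes to -0.11 for the COPII genes. The overall median log2 fold change of mutant against WT was -0.67, beside 0.11 for all 10562 genes tested, of which 46.9% were below 0. By edgeR's quasi-likelihood test at an adjusted p under 0.05, 0 of 36 were called, where 7.37% of all tested genes were called, 5.64% higher and 1.72% lower. Without adjustment 10 of the 36 had a p under 0.05, against 23.9% of all genes tested, and DESeq2 called 4, all lower, where it called 16.6% of all tested genes, 4.47% lower. The 5 WT and 5 mutant CPM values did not overlap for 9 traffic genes, all lower in mutants, against 8.27% of the tested genes that were separated in that direction. No traffic gene was separated with mutants higher, against 4.41% of the tested genes. With library sizes scaled by the trimmed mean of M values (TMM), 9 were again separated lower, with Sar1b in place of Kdelr1, against 8.36%, and 0 higher, against 4.85%.

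Among COPII genes, 6 of 11 lay below 0. Sec24d, whose gene lies at chr3:123267455-123365641 and encodes a cargo-binding coat subunit, stood at 37.5, 35.7, 17.7, 27.5 and 36.9 CPM in WT FrB and at 7.82, 9.94, 1.21, 0.636 and 3.23 CPM in mutant FrB. Every mutant library was below every WT library, and the values of mutant mice 8 and 9 rest on 3 and 6 counts. The fitted log2 fold change of Sec24d was -2.59 ± 0.88 (SE), with an adjusted p of 0.0857 by edgeR's quasi-likelihood test. The FrB values of mutant mouse 8 for Sec13, Sar1b, Cope, Tmed4 and Bet1 rest on 10, 4, 11, 13 and 6 counts. That of Bet1 in mutant mouse 9 rests on 8. Sec13 stood at 415, 398, 454, 264 and 334 CPM in WT and at 117, 227, 4.01, 146 and 28.5 CPM in mutants, again without overlap, for a log2 fold change of -1.70 ± 0.63 (SE). Sar1b was at 128 to 253 CPM in WT and at 43.1, 134, 1.61, 10.4 and 31.2 CPM in mutants, where mouse 5 alone fell inside the WT range. Its partner paralog Sar1a overlapped, with 182 to 225 CPM in WT and 49.8 to 236 CPM in mutants. On the other side of 0, Sec24c had the lowest p among members with higher fitted levels. Its values were 92.9, 58, 93.5, 85.1 and 81.1 CPM in WT and 133, 90.5, 182, 150 and 108 CPM in mutants. Only mouse 5 of the mutants lay within the WT range, and the log2 fold change was 1.11 ± 0.45 (SE) with an adjusted p of 0.148 by edgeR's quasi-likelihood test. Sec31a had a log2 fold change of 1.28 ± 0.62 (SE), Preb, the SAR1 exchange factor, 0.31, Sec23a 0.28, Sec24b 0.08, Sec24a -0.49 and Sec23b -0.67.

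Among COPI genes, 6 of 7 lay below 0, with a median log2 fold change of -0.75. Copz1 had the lowest p of the list. It stood at 582, 646, 511, 405 and 491 CPM in WT and at 337, 315, 43.4, 109 and 144 CPM in mutants, so that the groups did not overlap. The log2 fold change was -1.29 ± 0.39 (SE), with an adjusted p of 0.0576 by edgeR's quasi-likelihood test. Cope showed 532, 607, 503.7, 453 and 540.5 CPM in WT and 173, 369, 4.42, 301 and 200 CPM in mutants, also separated, for a log2 fold change of -1.17 ± 0.59 (SE). Copb1, Copb2, Arcn1 (the delta subunit) and Copg1 had fitted values between -0.66 and -0.76, and Copa, the alpha subunit, had 0.18.

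Of the 7 p24 genes, 6 lay below 0 and Tmed3 was at 0.42. Tmed10 stood at 299.98, 500.2, 328, 370.0 and 342 CPM in WT and at 153, 222, 106, 147 and 48.2 CPM in mutants, with no overlap and a log2 fold change of -1.16 ± 0.38 (SE). Tmed2, with which TMED10 forms p24 complexes, stood at 201, 248, 199, 180 and 174 CPM in WT and at 41.6, 129, 71.1, 59.4 and 52.4 CPM in mutants, for -1.20 ± 0.42 (SE). Tmed4 was separated as well, at 59.4 to 100.2 CPM in WT and 5.22 to 45.1 CPM in mutants. Tmed5, Tmed7 and Tmed9 overlapped between the genotypes and had fitted values of -0.24, -0.80 and -0.68.

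Among cargo receptors 5 of 6 lay below 0, and among SNAREs 4 of 5. Kdelr1, a receptor that retrieves KDEL-tailed chaperones, stood at 89 to 121 CPM in WT and 47.3 to 87.5 CPM in mutants, separated by the CPM but with a fitted log2 fold change of only -0.25. Kdelr2 had 254 to 376 CPM in WT and 73.4, 336, 13.2, 90 and 90.5 CPM in mutants, where mouse 5 fell within the WT range. Mcfd2 and Lman1, which together form a receptor for coagulation factors, had fitted values of -1.24 and -0.73, Surf4, a receptor for soluble cargo, had -0.09, and Lman2, a lectin, had 0.40. Of the SNAREs, which drive vesicle fusion, Bet1 was separated, at 64.6, 116, 76.6, 121 and 85.7 CPM in WT and 48.5, 59.7, 2.41, 0.847 and 7.98 CPM in mutants. Sec22b, Gosr2 and Ykt6 had fitted values of -1.10, -0.86 and -0.02, and Stx5a had 0.69.

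The calls in FrB moved with single libraries, and the direction of the whole list with the scale. Without mutant mouse 5, 7 traffic genes were called, where 9.94% of all tested genes were called higher and 8.04% lower. Sec24c was the one higher, and Sar1b, Sec24d, Copz1, Tmed2, Tmed10 and Kdelr2 were lower. Without mouse 8, Cope, Copz1, Tmed2 and Tmed10 were called lower, beside 2.39% of all genes called lower, and without mouse 4 only Copz1 was, beside 1.51%. The number of all genes called also varied over these fits, from 194 higher and 70 lower without WT mouse 1 to 1071 higher and 866 lower without mutant mouse 5. With library sizes taken from the ERCC spike-in counts, the median of the 36 genes was 0.01, with 17 below 0, and that of all genes was 0.59, so the list lay 0.58 below all genes, beside 0.78 below in the fit with TMM. Among mutant FrB libraries only that of mouse 5 was not of low complexity. In it 18 of the 36 genes lay below the lowest WT library and 4 above the highest, against 20.6% and 26.4% of all tested genes. With the 4 low-complexity libraries left out, 30 of 36 were below 0 with a median of -0.57, beside -0.16 for all genes. That fit sets the 1 library of mouse 5 against 5 WT libraries and assumes that it varies as they do, so its test, which called 0.126% of all genes higher and 1.07% lower and 0 traffic genes, has no replicate check in mutants.

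The share of counts held by the 36 genes together ran from 0.525% to 0.698% in WT FrB and from 0.166% to 0.455% in mutant FrB, with mouse 5 at 0.455%. The highest mutant was below the lowest WT library. The 8 plasma cell markers summed to between 17780 and 52990 CPM in WT FrB and between 948 and 12860 CPM in mutant FrB. Jchain, the joining chain of secreted antibodies, made up most of that sum in every FrB library except that of mutant mouse 8, with 14620 to 47970 CPM in WT FrB and 196 to 10530 CPM in mutants, and Xbp1, the transcription factor of the secretory program, was at 900.1 to 2092 CPM and 47.6 to 438 CPM. The 12 granulocyte and monocyte markers ran the other way, from 128 to 11510 CPM in WT and from 2574 to 58680 CPM in mutants, overlapping through mouse 5. The 5 B-lineage markers summed to 6815 to 8482 CPM in WT FrB and 1819 to 4454 CPM in mutants. The 8 immature B markers summed to 6960 to 11260 CPM in WT FrB and to 632.5 to 1786 CPM in mutants, also without overlap, whereas the 8 pro-B and pre-B markers overlapped, at 4546 to 7378 CPM and 5685 to 7349 CPM. The part of these markers and of library complexity in the lower traffic gene levels was not tested. The plots of the share of counts and of the plasma cell markers show both quantities by library.

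**Figure D2:**
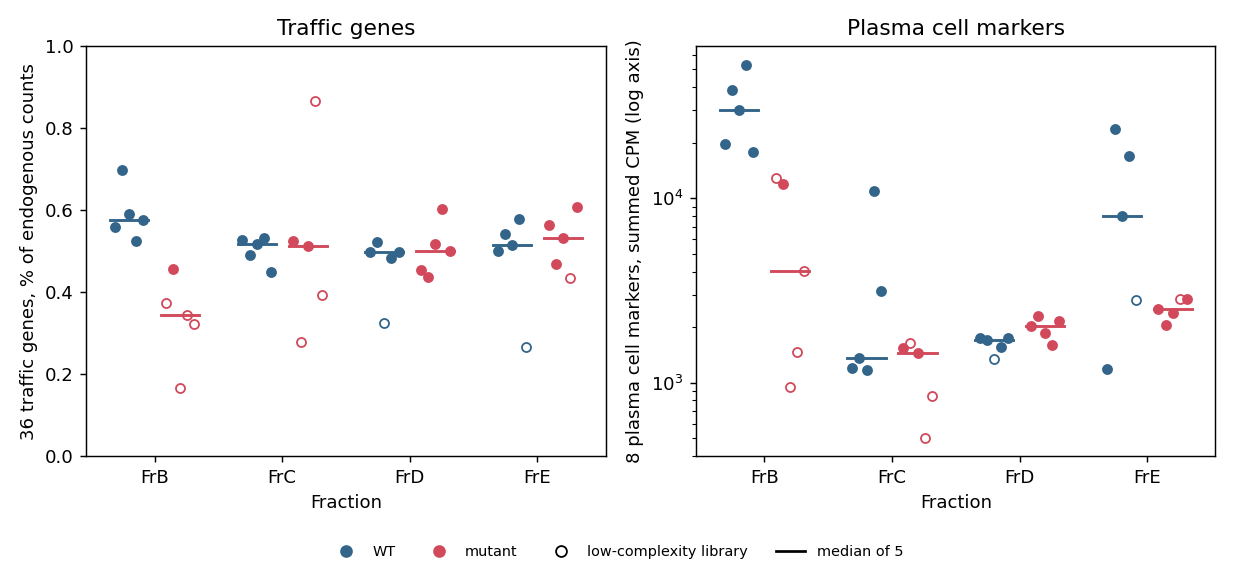
Left, percent of endogenous counts held by the 36 traffic genes, and right, summed CPM of 8 plasma cell markers on a log axis, for each library by fraction, WT in blue and mutant in red, with open symbols for low-complexity libraries and bars at group medians. WT FrB lies above mutant FrB in both panels, with 0.525% to 0.698% against 0.166% to 0.455% in the left one.

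**Figure D3:**
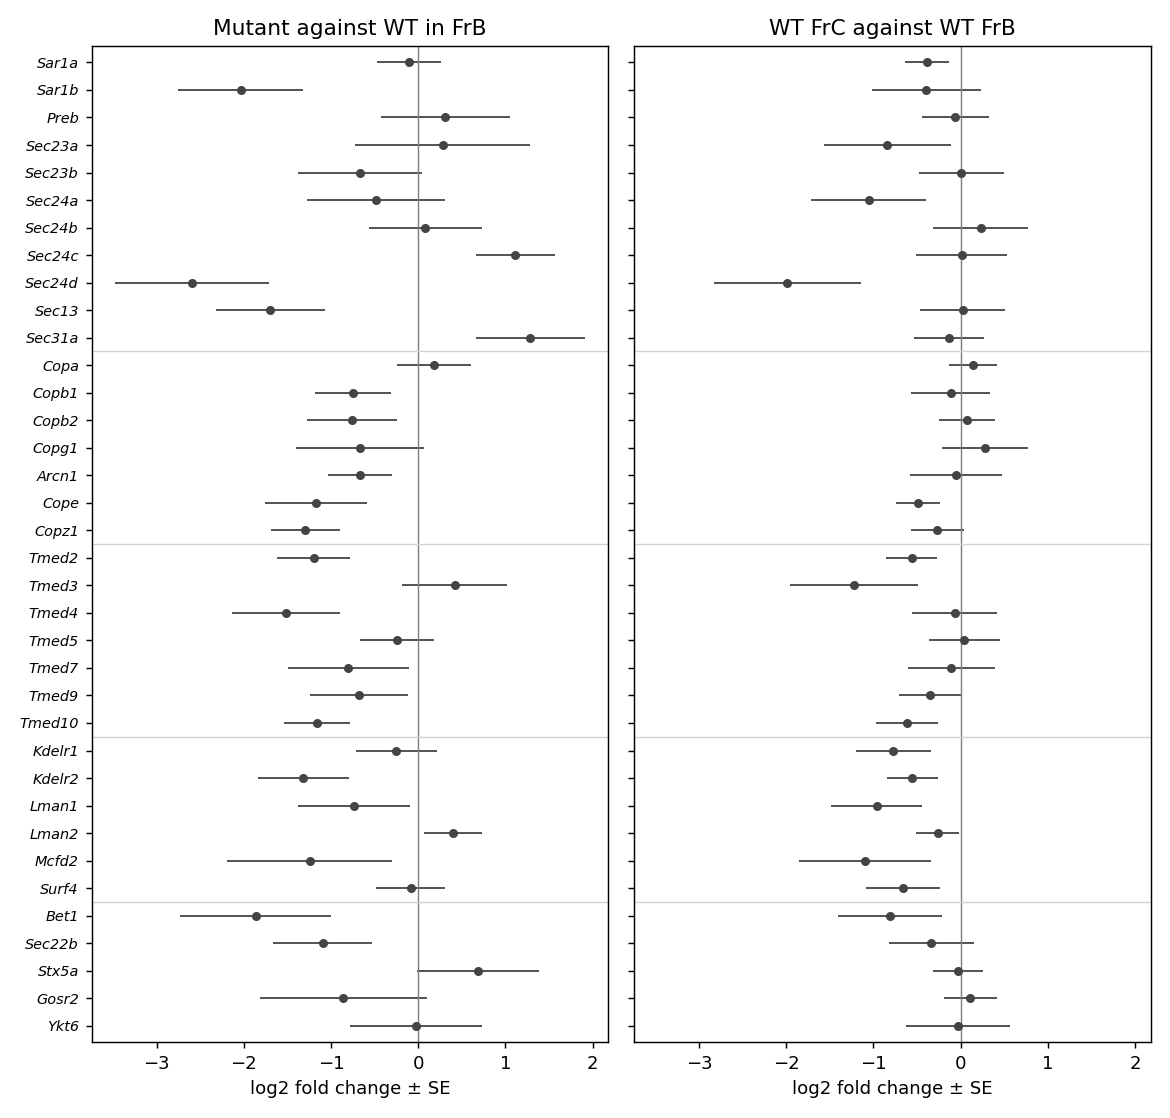
Fitted log2 fold change of each traffic gene with its SE, for mutant against WT in FrB (left) and for WT FrC against WT FrB (right), on one scale. In the left panel 27 of 36 points lie below 0, in the right panel 27 of 36, and no gene passed an adjusted p of 0.05 in either comparison.

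In FrC the genotype test called no traffic gene, and the 36 split almost evenly, 17 above and 19 below 0, with a median log2 fold change of -0.12 beside 0.09 for all genes. The sign of that median was not stable, since it was 0.02 by DESeq2, beside 0.25 for all genes. Without the low-complexity libraries, which left 2 mutant FrC libraries (mice 4 and 8), the median was 0.05, beside -0.02 for all genes. In that fit 25 of the 36 lay above 0. Of 10299 genes, 0 (0%) were called by edgeR's quasi-likelihood test, with 1168 at an unadjusted p under 0.05, 5 of them traffic genes. DESeq2 called 174 genes, 0 of them traffic genes. Groups were separated for 0 of the 36 in either direction, against 0.0388% of tested genes higher and 2.32% lower. The member with the lowest p on the lower side was Bet1, at 33.7 to 74 CPM in WT FrC and 44.9, 21.1, 40.5, 2.32 and 20.3 CPM in mutant FrC, with a log2 fold change of -0.77 ± 0.50 (SE).

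The largest fitted genotype effects among traffic genes came from 1 FrC library. Sar1a, at chr10:61680299-61693297, stood at 156, 160, 197, 172 and 156 CPM in WT FrC and at 149, 217, 211, 2512 and 214 CPM in mutant FrC. Tmed9, a p24 gene at chr13:55573732-55597697, stood at 148, 73.2, 86.3, 146 and 148 CPM in WT FrC and at 120, 89.9, 182, 4705 and 28.8 CPM in mutant FrC. In both genes the library of mutant mouse 9 stood alone, and the ranges of the other 4 mutant libraries, 149 to 217 CPM for Sar1a and 28.8 to 182 CPM for Tmed9, overlapped with WT. That library had 1723215 counts, the second lowest total, 56.8% of its detected genes had 1 to 9 counts, and its 8 erythroid markers summed to 75220 CPM against 160 to 2271 CPM in the other mutant FrC libraries. Sar1a and Tmed9 together took 0.722% of its counts, and the other 34 traffic genes took 0.145%, below every other library. Sec22b at 662 CPM and Surf4 at 324 CPM were also higher there than in the other 9 FrC libraries. The fitted genotype effects in FrC were 4.58 ± 1.43 (SE) for Sar1a and 5.92 ± 1.87 (SE) for Tmed9 on the log2 scale, both with an adjusted p of 0.271 by edgeR's quasi-likelihood test. A fit of all 40 libraries, in which the groups share 1 estimate of the spread, called Sar1a, Tmed9, Surf4 and Sec22b higher in mutant FrC, where 4.99% of its 12397 genes were called higher.

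Sar1a and Tmed9 were also the only traffic genes called in any of the 11 comparisons, and those calls rested on the same library. The step from FrB to FrC differed between genotypes for Sar1a by 4.95 ± 1.07 (SE) and for Tmed9 by 6.87 ± 1.50 (SE) on the log2 scale, each with an adjusted p of 0.0395 by edgeR's quasi-likelihood test, where 0.524% of 12397 genes were called higher and 0% lower. The step from FrC to FrD differed by -4.76 ± 1.07 (SE) for Sar1a, adjusted p 0.0232, and by -6.29 ± 1.48 (SE) for Tmed9, adjusted p 0.0253, by the same test, where 2.98% were called, 0.274% higher and 2.71% lower. These contrasts share the FrC libraries. Without mutant mouse 9 the first difference was 0.83 for Sar1a and 1.11 for Tmed9, and the next was -0.41 and -0.06. None was called, where 0% of all tested genes were called in either difference. The first pair of calls was also lost without any 1 of the 5 WT mice, at adjusted p-values of 0.145 to 0.172 by edgeR's quasi-likelihood test. It was lost with the mouse as a block too, at an adjusted p of 0.803 by the same test. In each of these fits 0% of all tested genes were called. Over 15 alternatives the adjusted p of Sar1a in the first difference ran from 0.00784 to 0.9999. The next pair was lost under the block, at 0.776 for Sar1a and 0.889 for Tmed9 within a range of 0.0131 to 1.0 for each, and without WT mouse 1, 2, 3 or 6, and Tmed9 also without WT mouse 7. Under the block 0.00807% of all tested genes were called. The share was 0% without WT mouse 1, 2, 3 or 6, and 1.14% without WT mouse 7. In the other direction the lowest p belonged to Sec24c in the first difference, at -1.04 ± 0.71 (SE), and to Tmed3 in the next, at 1.27 ± 0.99 (SE). The step from FrD to FrE differed for 0 of the 36 genes, where 0.153% of all genes were called, 0.0565% higher and 0.0968% lower. In that difference 0 of the 36 had an unadjusted p under 0.05, against 10.2% of all tested genes. DESeq2 called 0 traffic genes, against 3.82% of all tested genes, 133 higher and 340 lower. Bet1 at 1.39 ± 0.95 (SE) and Ykt6 at -1.34 ± 1.02 (SE) had the lowest p there.

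**Figure D4:**
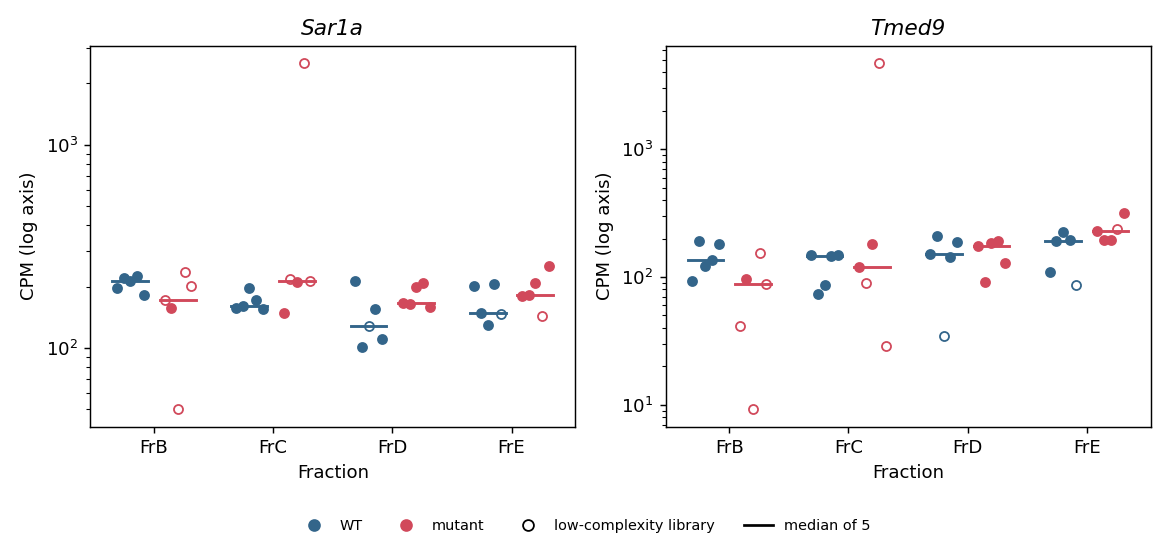
CPM of Sar1a (left) and Tmed9 (right) on log axes in every library by fraction, WT in blue and mutant in red, open symbols for low-complexity libraries and bars at group medians. The FrC library of mutant mouse 9 stands alone at 2512 and 4705 CPM, while the other mutant FrC libraries lie between 149 and 217 CPM and between 28.8 and 182 CPM.

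In FrD no traffic gene differed between genotypes by the test. The median log2 fold change was -0.04, with 17 above and 19 below 0, beside -0.07 for all 10043 genes, of which 0.00996% were called. None of the 36 was called by edgeR's quasi-likelihood test, and 0 had an unadjusted p under 0.05, against 5.28% of all genes. DESeq2 called 0, against 0.687%. Groups were separated for 0 of the 36, against 1.72% of tested genes higher and 0.468% lower. Surf4 had the lowest p on the higher side, at 102, 157, 20.7, 154 and 106 CPM in WT and 83.4, 143, 267, 363 and 303 CPM in mutants. Mutant mice 8, 9 and 10 lay above the WT range and mice 4 and 5 within it, for a log2 fold change of 0.95 ± 0.47 (SE) and an adjusted p of 0.931 by edgeR's quasi-likelihood test. Copz1, lowest in p on the other side, stood at 492 to 659 CPM in WT and at 523, 156, 398, 500.5 and 506.5 CPM in mutants, a log2 fold change of -0.64 ± 0.31 (SE). With ERCC library sizes 31 of 36 lay above 0 with a median of 0.44, while the median of all genes moved to 0.39. Granulocyte and monocyte markers summed to 11820 to 22880 CPM in mutant FrD. In WT FrD they summed to 74850 CPM in the low-complexity library of mouse 3 and to 46.3 to 8431 CPM in the others, below every mutant library. The 5 B-lineage markers summed to 6860 to 9887 CPM in mutant FrD and to 4601 to 17440 CPM in WT FrD, with medians of 8494 and 15000 CPM. The part of these markers was not tested.

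In FrE the test also found no difference. The median of the 36 genes was 0.03, with 21 above and 15 below 0, beside -0.10 for all 9662 genes, of which 0% were called. Of the 36, 0 were called by edgeR's quasi-likelihood test and 0 had an unadjusted p under 0.05, 512 of all genes had one, and DESeq2 called 0 of the 36 and 58 of all genes. Groups were separated for 0 of the 36, against 1.4% of tested genes higher and 0.507% lower. Ykt6, a SNARE of ER-Golgi and later fusion steps, stood at 44.9, 33.6, 43.8, 29.9 and 258 CPM in WT FrE and at 52.9, 48.7, 26.5, 47.5 and 53.6 CPM in mutant FrE. Only the low-complexity library of WT mouse 7 was high, and the log2 fold change of -1.19 ± 0.70 (SE) became 0.15 without it. In the same library Sec24d, Sar1b, Sec13 and Bet1 were at 0.697, 1.05, 8.54 and 1.74 CPM, below the other 4 WT libraries. The FrE library of mutant mouse 9 held 42111 counts, so that its Sec24d value of 47.5 CPM rests on 2 counts. Bet1 had the lowest p on the higher side, at 93, 80.4, 68.3, 36.4 and 1.74 CPM in WT and 122, 109, 89.9, 71.2 and 132 CPM in mutants, a log2 fold change of 0.80 ± 0.67 (SE).

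Summed over the fractions of each mouse, the genotype effect called 0 of the 36 genes, where edgeR's quasi-likelihood test called 0.631% of 12036 genes, 0.291% higher and 0.341% lower. An unadjusted p under 0.05 was found for 4 traffic genes, against 16.6% of all tested genes. DESeq2 called 0 of the 36, against 4.43%. The lowest p belonged to Sec24d, with a log2 fold change of -0.90 ± 0.31 (SE) and an adjusted p of 0.168 by edgeR's quasi-likelihood test. Sec24c had the lowest p on the higher side, at 0.41 ± 0.24 (SE). The sums were of raw counts, so deeper libraries weighed more and the mix of fractions differed between mice. Mutant mouse 9 had 43372070 counts in FrD and 42111 in FrE, and mutant mouse 8 had 2490592 in FrB and 38120623 in FrC. The part of this mix in the fold changes was not tested.

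Across WT development, the share of counts held by the traffic genes was highest by median in FrB. It ran from 0.525% to 0.698% in FrB and from 0.449% to 0.532% in FrC, which overlapped through mouse 6 in FrB and mice 1 and 6 in FrC. It ran from 0.324% to 0.522% in FrD and from 0.265% to 0.579% in FrE, where the lowest values were the 2 low-complexity libraries. No traffic gene passed the test in any WT step.

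From WT FrB to WT FrC 27 of the 36 genes had fitted values below 0, among them all 6 cargo receptors and 6 of 7 p24 genes. The median log2 fold change was -0.26 beside 0.01 for all 11439 genes, of which 0.166% were called. By edgeR's quasi-likelihood test 0 of 36 were called, and 1 had an unadjusted p under 0.05, against 5.04% of all genes. DESeq2 called 0, against 1.29%. The libraries of the 2 fractions did not overlap for 5 traffic genes, all lower in FrC, against 3.79% of tested genes, and for 0 higher, against 3.75%. On the TMM scale Sec23a joined them, for 6 lower, against 4.67%, and 0 higher, against 2.45%. Those separated by CPM were Sec24d, Cope, Tmed3, Tmed10 and Lman1. Tmed3 stood at 125, 146, 92.9, 120 and 98 CPM in FrB and 52.5, 40, 38, 61.5 and 73.4 CPM in FrC. Lman1 stood at 111, 239, 126, 151 and 121 CPM and then at 91.6, 79.5, 92.4, 80.6 and 63.6 CPM. Each FrC library was below each FrB library in both genes. Tmed10 ran from 299.98 to 500.2 CPM in FrB and from 215 to 296 CPM in FrC, and Cope from 453 to 607 CPM and from 351 to 447 CPM. The only members whose fitted values were above 0.2 were Copg1, the gamma subunit of COPI, at 0.28 ± 0.49 (SE), and Sec24b at 0.23. Plasma cell markers moved in the same direction, from 17780 to 52990 CPM in WT FrB to 1167 to 10890 CPM in WT FrC, where Jchain was at 4.92 to 15.6 CPM in mice 1, 2 and 3, at 8969 CPM in mouse 6 and at 1766 CPM in mouse 7. The immature B markers, at 6960 to 11260 CPM in WT FrB and 2066 to 3795 CPM in WT FrC, and the 5 B-lineage markers, at 6815 to 8482 CPM and 5048 to 6423 CPM, were lower in FrC without overlap too. The part of these markers in the lower traffic gene levels was not tested.

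Sec24d had the lowest p of the 36 in the first WT step and its lowest WT median in FrC. It was at 37.5, 35.7, 17.7, 27.5 and 36.9 CPM in FrB and at 2.85, 6, 8.68, 8.65 and 15.6 CPM in FrC. It was then at 17.8, 55.9, 0.471, 14.2 and 27.1 CPM in FrD and at 51.4, 49.8, 60.1, 62.1 and 0.697 CPM in FrE. FrC lay below FrB without overlap, and in FrD and FrE the low-complexity libraries of mice 3 and 7 fell out of the range of the other 4. The fitted steps were -1.98 ± 0.84 (SE), 1.63 ± 0.83 (SE) and 0.93 ± 0.82 (SE) on the log2 scale, with adjusted p-values of 0.77, 0.285 and 0.575 by edgeR's quasi-likelihood test. Without the 2 low-complexity WT libraries the first step was -1.98 ± 0.44 (SE), adjusted p 0.0194, and the next 1.91 ± 0.45 (SE), adjusted p 0.00574, by the same test. Over all 10 alternatives those adjusted p-values ran from 0.0194 to 1.0 and from 0.00574 to 0.724. Without the 2 libraries 1.49% of all tested genes were called in the first step and 16.1% in the next. With all WT libraries these shares were 0.166% and 5.23%.

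The 4 Sec24 paralogs bind overlapping sets of cargo signals. Per kilobase, Sec24c made up the largest part of their sum in WT FrB, with a median of 48% over 5 libraries and a range of 37.9% to 60.7%. Sec24d made up 21.7% in WT FrB (range 11.5% to 23.2%), 4.94% in WT FrC (2.82% to 8.04%), 18.2% in WT FrD (0.509% to 24.6%) and 32.2% in WT FrE (0.479% to 37.3%). The FrB and FrC ranges did not overlap, and the lowest values of FrD and FrE were the low-complexity libraries. In mutants the share of Sec24d was 1.78% in FrB (0.321% to 6.40%), below every WT FrB library, and 2.53%, 12.2% and 13.8% in FrC, FrD and FrE, where the ranges overlapped with WT. Sar1a made up 27.1% of the SAR1 pair in WT FrB and 24.2% to 28.1% by median in the other WT fractions. In mutants its median share was 68.4% in FrB (28.2% to 91.2%, against 22.6% to 34.0% in WT) and 82.0% in FrC (24.6% to 99.7%), where the ranges overlapped with WT, and 30.3% and 27.8% in FrD and FrE. Outside the low-complexity libraries the share of Sar1a was 28.2% in mutant FrB (1 library) and 24.6% to 30.1% in mutant FrC (2 libraries). The low-complexity WT libraries were high too, at 58.75% in FrD of mouse 3 and 97.9% in FrE of mouse 7. By median, Sec23b made up 64.4% to 76.5% of the SEC23 pair and Kdelr2 66.3% to 78.9% of the KDEL receptor pair in WT fractions. In mutant FrB these medians were 65.1% and 57.4%, with ranges of 3.19% to 100% and 13.4% to 82.3%.

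**Figure D5:**
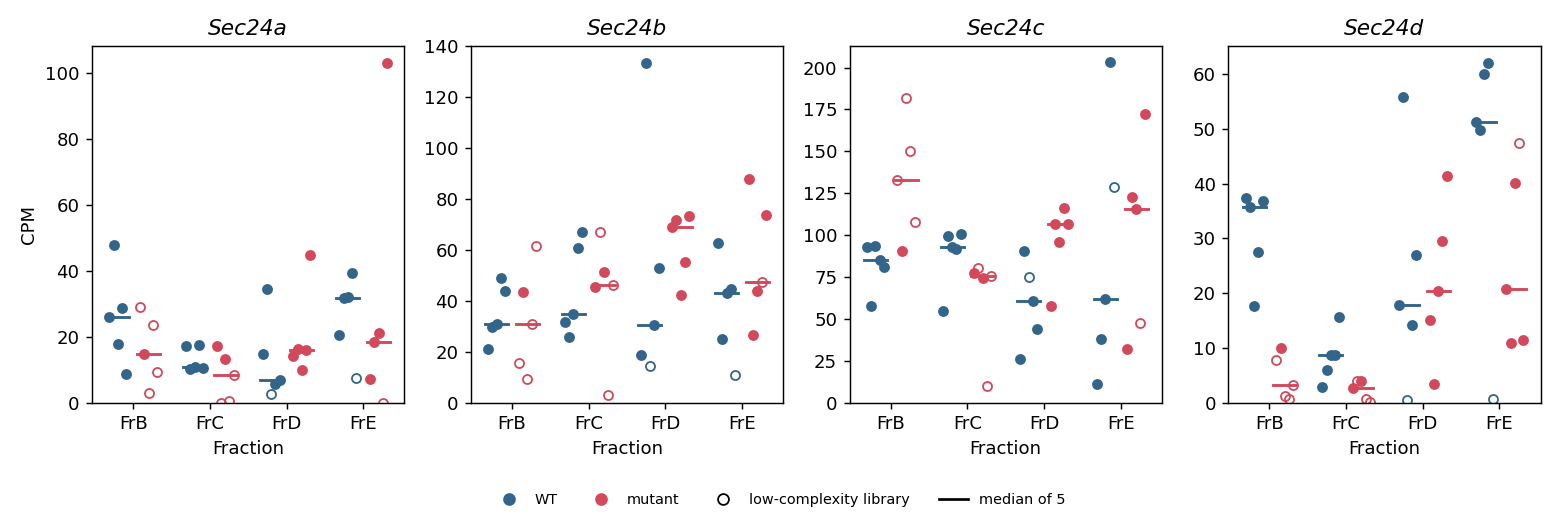
CPM of the 4 Sec24 genes in every library by fraction, WT in blue and mutant in red, open symbols for low-complexity libraries and bars at group medians, each panel with its own axis from 0. Sec24d is the paralog whose WT and mutant FrB values, 17.7 to 37.5 and 0.636 to 9.94 CPM, do not overlap, and its WT median is lowest in FrC.

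From WT FrC to WT FrD the 36 genes had a median of 0.09, with 22 above and 14 below 0, beside 0.10 for all genes, of which 5.23% were called, 2.95% higher and 2.28% lower. None of the 36 was called by edgeR's quasi-likelihood test, 1 had an unadjusted p under 0.05, against 19.9% of all genes, and DESeq2 called 0, against 11.3%. By CPM only Tmed10 was separated, lower in FrD at 38.3 to 206 CPM against 215 to 296 CPM, where 9.3% of tested genes were separated lower, and 0 were separated higher, where 2.71% were. On the TMM scale the separated genes were Copz1 and Stx5a, both higher in FrD, against 4.24%, and 0 lower, against 6.71%. Stx5a, the syntaxin of ER-Golgi fusion, had the lowest p. It stood at 99.8, 101, 87.9, 143 and 142 CPM in FrC and at 135, 182, 127, 150 and 176 CPM in FrD, overlapping by mice 6 and 7 of FrC, with a log2 fold change of 0.67 ± 0.29 (SE). Copg1 had the lowest p on the other side, at 72.7 to 175 CPM in FrC and 7.85 to 124 CPM in FrD, for -0.84 ± 0.50 (SE). Without the 2 low-complexity WT libraries, Sec24d and Kdelr1 were called higher and Copb2 lower, at 1.91, 0.77 and -0.80 on the log2 scale, where 16.1% of all genes were called.

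From WT FrD to WT FrE the median was 0.16, with 24 above and 12 below 0 and all 7 p24 genes above it, beside 0.01 for all genes. Without WT mouse 3, whose FrD library was of low complexity, the median of the 36 was -0.05, with 15 above and 21 below 0, beside 0.10 for all genes. Of all genes, 5.32% were called, 2.88% higher and 2.43% lower. Of the 36, 0 were called by edgeR's quasi-likelihood test, 2 had an unadjusted p under 0.05, against 21.2% of all genes, and DESeq2 called 0, against 12.9%. Groups were separated for 0 of the 36, against 1.8% of tested genes higher and 1.77% lower. Sec23b, the more abundant SEC23 gene, stood at 108, 34.3, 253, 106 and 132 CPM in FrD and at 72.5, 38, 63.8, 121 and 14.3 CPM in FrE. The highest FrD and lowest FrE values were the low-complexity libraries, and the log2 fold change was -1.29 ± 0.49 (SE) with an adjusted p of 0.122 by edgeR's quasi-likelihood test. Ykt6 was at 27.8 to 69 CPM in FrD, and its fitted step of 1.08 ± 0.61 (SE) became -0.34 without WT mouse 7.

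A further 72 genes of ER-Golgi traffic were listed as the wider pathway, and 65 to 70 of them passed the filter. In the FrB genotype effect 5 of 68 were called, near the background of 7.37% of all tested genes. Arf5 and Gbf1, a COPI-recruiting GTPase and an ARF exchange factor, and Trappc9, of a tethering complex, were higher in mutants, and Arf4, another such GTPase, and Arfgap2, an ARF GTPase-activating protein, were lower. Gbf1 stood at 16.3, 13.6, 30.9, 16.7 and 25.2 CPM in WT FrB and at 77.4, 27.4, 210, 123 and 105 CPM in mutant FrB, for a log2 fold change of 2.93 ± 0.67 (SE). Arf4 stood at 479, 610, 432, 525 and 421 CPM in WT and at 120, 277, 69.1, 7.84 and 73 CPM in mutants, without overlap, for -1.98 ± 0.57 (SE). For Gbf1 the value of mouse 5 alone lay within the WT range. The median of the 68 genes was -0.33, with 39 below 0. In FrC, FrD, FrE and over fractions 65, 65, 66 and 70 of the 72 were tested, and 0 were called by edgeR's quasi-likelihood test. An unadjusted p under 0.05 was found for 9, 0, 3 and 16 of them, against 11.3%, 5.28%, 5.3% and 16.6% of all tested genes. In WT, Bet1l was called higher from FrC to FrD, where 2.95% of all tested genes were. Copz2, the second zeta subunit, and Kdelr3, the third KDEL receptor, were called higher from FrD to FrE, where 2.88% were. Both were under 0.05 CPM in every WT FrD library. In WT FrE, Copz2 stood at 0.043, 9.25, 19.5, 10.3 and 1.22 CPM and Kdelr3 at 0.043, 12.6, 0, 0 and 13.9 CPM. Jchain stood at 7.90, 20529, 5310, 14174 and 1845 CPM in the same 5 libraries, and its part in these levels was not tested. Of the 3 differences between genotypes in a step, only that from FrC to FrD called a gene of the wider list, Sec23ip, lower. In that difference 2.71% of all tested genes were called lower. Without mutant mouse 9, or without WT mouse 1, 2, 3 or 6, 0% of all tested genes were called in it, so the call of Sec23ip was lost.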

How the data were processed

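The values are read counts per gene as deposited: per the submitters' processing notes the authors used HISAT2 2.1.0, featureCounts 1.4.6 from Subread, DESeq2 and the mm10 build, while an annotation release or strand setting was not given in the sources used here. The table held 21958 gene rows, of which 21728 matched GENCODE M21, and 92 ERCC spike-in rows, which entered no library size except in the alternative scaled by them. Counts come from PCR-amplified reads without molecular identifiers, so they are not counts of molecules.

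Genes were tested in R 4.3.3 with edgeR 4.0.16 (quasi-likelihood test, two-sided, TMM scaling, filterByExpr at count 10 and total 15), and p-values were adjusted by Benjamini-Hochberg over all genes tested, with a threshold of 0.05. Each genotype effect in a fraction used that fraction's 10 libraries, that over fractions the summed counts of each mouse, WT steps used the 20 WT libraries, and differences between genotypes in a step used all 40. The scripts were tested on simulated data.

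Members called in a comparison, or else the member of lowest p in each direction, were described in full, and genes whose groups did not overlap were added after their values were seen. The 36 members, the 72 further pathway genes and the marker lists were chosen with earlier results of these data known, and 1 marker is not reported here. Libraries of a mouse come from the same animal, and the median correlation of their deviations from the group means ran from -0.019 to 0.065 over neighbouring fractions. Alternatives were DESeq2 1.42.0 and its size factors, no filter on low counts, ERCC scaling, 1 fit of all libraries, the index set as a covariate, the mouse as a block, the low-complexity libraries left out, and each mouse left out in turn. Levels per kilobase used the union of exons in GENCODE M21.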

Additional observations from a re-analysis of the deposited data

Results flagged for a closer look

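In 27 of 288 sets of 5 libraries (36 genes in 8 groups) the highest or lowest library stood apart from the other 4 by Dixon's criterion. Independent, normally distributed values meet it in about 1 set in 20. The CPM were used untransformed and the genes of 1 library are not independent, so that rate is no background for the 27. The FrE library of WT mouse 7, of low complexity, had 5 of them. Sec24d at 0.6975, Sec13 at 8.544 and Mcfd2 at 1.918 CPM were low there, and Lman1 at 253.2 and Ykt6 at 257.7 CPM were high. The FrC library of mutant mouse 9, also of low complexity, had 4. Sar1a at 2512, Tmed9 at 4705 and Sec22b at 662.1 CPM were high there and Sec24c at 9.865 CPM was low.

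In the FrC library of mutant mouse 10, Copb2 at 468.8, Mcfd2 at 190.7 and Ykt6 at 291.4 CPM were high. In the FrE library of mutant mouse 10, Sec23a at 77.43, Sec24a at 103.1 and Surf4 at 317.8 CPM were high, and so was Sec24a at 44.92 CPM in FrD of that mouse. In the FrD library of WT mouse 3, Tmed10 at 38.29 CPM was low and Ykt6 at 69.05 CPM was high. Other mutant libraries gave Kdelr2 at 336.1 CPM in FrB of mouse 5, Gosr2 at 142.5 CPM in FrE of mouse 9 (6 counts) and Ykt6 low at 26.45 CPM in FrE of mouse 8. Single WT libraries gave Preb low at 47.77 CPM in FrD of mouse 1, Copg1 low at 44.57 CPM in FrB of mouse 6, and in FrC Sec24c low at 54.43 and Tmed2 high at 188.3 CPM in mouse 1, Kdelr1 high at 97.13 CPM in mouse 6 and Arcn1 low at 150.2 CPM in mouse 7.

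By the test of the difference itself, the step from FrB to FrC differed between genotypes by 4.953 for Sar1a and 6.869 for Tmed9, and the step from FrC to FrD by -4.765 and -6.291, all on the log2 scale. Leaving out mutant mouse 9 brought these to 0.83, 1.11, -0.41 and -0.06.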

How the results depend on the processing

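Counts of traffic genes called changed as follows, and the cause was not tested except where libraries were removed. In FrB, DESeq2 called 4 in place of 0, where it called 16.6% of all tested genes. Leaving out 1 mouse gave 0 to 7, where 2.45% to 18% of all tested genes were called. In FrC, ERCC scaling called 1, where 2.18% of all tested genes were called, and a fit of all 40 libraries 4, where 5.06% were. Without the low-complexity libraries 1 was called from WT FrB to FrC, where 1.49% of all tested genes were called. From WT FrC to FrD 3 were called, where 16.1% of all tested genes were. For the genotype difference from FrB to FrC 2 genes were called, Sar1a and Tmed9, where 0.524% of all tested genes were. With no filter and under the replicate block 0 were called, where 0% of all tested genes were called in each fit. The fit without low-complexity libraries left 1 library in mutant FrB, and its calls are not given. DESeq2 called 1, Surf4, in place of both, where it called 2.41% of all tested genes. Its size factors in edgeR gave 3 with Sec22b added, where 1.51% of all tested genes were called. Leaving out 1 mouse gave 0 to 3, where 0% to 3.03% were called. For that from FrC to FrD the calls of Sar1a and Tmed9 became 0 with DESeq2, which called 4.93% of all tested genes. They became 0 without low-complexity libraries and 0 under the replicate block, where 0% and 0.00807% of all tested genes were called. Without 1 mouse they became 0 to 2, where 0% to 3.41% were called. The replicate block, which pairs libraries of a mouse, changed no other call of a traffic gene.

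Ykt6 changed sign in FrE, to 0.171 without low-complexity libraries and, without 1 mouse, over a range of -1.448 to 0.150 (positive without WT mouse 7). Its WT step from FrD to FrE ran from -0.337 to 1.76 and its genotype difference in that step from -2.005 to 0.124, with the sign changed without WT mouse 7. The difference of Sar1a from FrC to FrD became 0.088 without low-complexity libraries. Copz1 per kilobase was 205 CPM by its longest transcript. The other values compared were fold changes of single genes, medians of the whole list and levels per kilobase. Of these together, 452 counted as unchanged, 32 lost a call and 7 gained one. An unchanged fold change kept its direction and its side of the threshold. An unchanged median had moved by less than the spread between libraries of a group, whatever its sign. An unchanged level had moved by less than its standard deviation over the WT libraries. The genotype effect over fractions without low-complexity libraries was not run, since mice would then be summed over different fractions.

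Depth limits the FrE library of mutant mouse 9, with 42111 counts. Of the 10 low-complexity libraries 8 are mutant, and in FrB low complexity and genotype cannot be told apart outside mouse 5.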
